A study of Homo sapiens with 4 samples.

Results

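SPARC, a secreted glycoprotein that binds collagen, and 7 relatives of it were followed in the RNA-Seq libraries of WT and Helz-null HEK293T cells. The members were listed by name: SPARC itself, its closest relative SPARCL1, the testicans SPOCK1, SPOCK2 and SPOCK3, the modular proteins SMOC1 and SMOC2, and the follistatin-like protein FSTL1. They are 8 of the 27011 genes in the count table, and 7 of them had at least 1 count. SPARC is in the list because the study had selected it for RT-qPCR after its rise in this same contrast, so its values are given as a description with no p-value. The relatives were listed for their protein family. HEK293T is an established line of human embryonic kidney cells that carries the SV40 large T antigen. Its helz gene was edited with CRISPR-Cas9 to give the Helz-null line, by a guide RNA to a coding exon and a deletion that shifts the reading frame. Both groups had 2 libraries, described as biological replicates, from untreated cells plated a day before harvest. A single edited line was compared with the WT cells. From these libraries alone, loss of HELZ and other differences between the lines cannot be told apart.

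The family is built around a follistatin-like domain and an extracellular calcium-binding domain, to which the testicans and the SMOC proteins add a thyroglobulin-like domain. Its members are matricellular proteins, secreted proteins that are placed in the extracellular matrix and modulate cell adhesion, growth factor signalling and matrix assembly without being major structural parts of it. SPARC, also called osteonectin or BM-40, is known from bone and from remodelling tissue, where it binds fibrillar and basement membrane collagens. The testicans are proteoglycans first known from testis and brain, SPARCL1 (hevin) is made by astrocytes and blood vessels, and the SMOC proteins and FSTL1 act on BMP signalling.

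HELZ mRNA served as the check of the labels. Per kilobase of gene and after TMM scaling in edgeR (FPKM), its level was 7.22 and 7.51 in WT replicates 1 and 2 and 2.67 and 2.74 in Helz-null replicates 1 and 2. Both libraries labelled Helz-null thus lay below both WT libraries. Library totals ranged from 41745401 to 70464140 counts. Both mates of a read pair may have been counted. In that case totals and raw counts given here are about double the number of sequenced fragments, and the floors are too low. The 10978 genes of the authors' deposited comparison were tested in edgeR by its quasi-likelihood F test, with calls made at an FDR under 0.005. SPARC, SMOC1 and FSTL1 were among these genes. The 4 low members SPARCL1, SPOCK1, SPOCK2 and SPOCK3 were not, and their changes come from a wider fit over the 16087 genes that passed the filterByExpr function of edgeR. Listed marker genes of several cell types were examined. All 8 listed epithelial and embryonic kidney genes exceeded 1 CPM (counts relative to the scaled size of the library), with summed levels of 1205 to 1339 CPM. Most of this came from VIM, so the sum alone does not show the origin of the cells. The sum was higher in the WT libraries, as were KRT8 (27.4 and 30.0 CPM against 13.9 and 14.9 CPM in Helz-null cells) and EYA1, whereas PAX2 and LHX1 were higher in the Helz-null libraries. None of 5 endothelial genes exceeded 1 CPM in a library. Of 8 fibroblast genes 3 exceeded 1 CPM in a library (COL1A1, COL3A1 and PDGFRA) and DCN had 0 counts throughout, and of 5 osteoblast genes 3 did (ALPL, RUNX2 and BGLAP) and IBSP had 0 counts throughout. The summed CPM of the fibroblast genes was 19.0 and 20.6 in WT and 20.6 and 20.2 in Helz-null cells, and that of the osteoblast genes 12.6 and 12.4 against 13.9 and 13.2. The 5 endothelial genes summed to 0.573 and 0.341 CPM in WT against 0.871 and 0.803 CPM in Helz-null cells. The astrocyte genes, of which SLC1A3 gave nearly the whole sum, had 56.3 and 55.3 against 50.4 and 52.5 CPM. Their part in the results was not tested. In bulk RNA, a change in the number of cells that express a gene and a change in its RNA per cell cannot be told apart.

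Sequences directly upstream of the annotated start are shown for SPARC, FSTL1, SMOC1 and SPOCK3, since members that moved in opposite directions can be compared in them. RefSeq windows on GRCh38.p14 were found for 7 of the 8 members, all but SPOCK1, and 150 bases upstream of the start are printed 5′ to 3′ on the strand of the gene. Capitals mark the GGA box GGAGGA, which was also searched as its reverse complement. Purine-rich GGA boxes of this kind, and the lack of TATA and CCAAT boxes, are known features of the SPARC promoter.
SPARC, chr5:151686916-151687065, minus strand: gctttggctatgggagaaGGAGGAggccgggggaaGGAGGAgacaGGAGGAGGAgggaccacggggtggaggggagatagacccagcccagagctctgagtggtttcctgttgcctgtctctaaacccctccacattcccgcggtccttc
FSTL1, chr3:120450993-120451142, minus strand: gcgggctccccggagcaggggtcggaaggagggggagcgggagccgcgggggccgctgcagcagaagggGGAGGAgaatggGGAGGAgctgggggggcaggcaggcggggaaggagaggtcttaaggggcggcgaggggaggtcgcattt
SMOC1, chr14:69879266-69879415, plus strand: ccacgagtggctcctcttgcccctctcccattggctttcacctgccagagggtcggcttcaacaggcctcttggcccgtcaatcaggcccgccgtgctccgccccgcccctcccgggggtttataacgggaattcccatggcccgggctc
SPOCK3, chr4:167234495-167234644, minus strand: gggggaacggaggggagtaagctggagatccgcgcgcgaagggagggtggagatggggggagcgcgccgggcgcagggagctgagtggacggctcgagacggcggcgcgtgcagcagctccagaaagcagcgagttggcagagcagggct
The SPARC window held 4 copies of GGAGGA, 2 of which overlap each other, and neither the GC box GGGCGG nor the TATA box TATAAA nor the CCAAT box on either strand. Its GC content was 62.0%, but CpG dinucleotides were at 0.292 of the number expected from its base composition, against a median of 0.582 over 35116 promoter windows of the same length. FSTL1 held GGAGGA 2 times and GGGCGG once, and SMOC1 held none of the former but the GC box 2 times and the TATA and CCAAT boxes once each. The printed SPOCK3 window, the first of its 3, had none of the 4 motifs, a GC content of 70.7% and a CpG ratio of 1.03, and the third SPOCK3 window held the GGA box once. Over all members, 5 of the 10 windows held GGAGGA, and they belonged to 5 members, namely SPARC, FSTL1, SPOCK2, SPOCK3 and SMOC2. SPOCK2 and SPOCK3 also had windows without it. The motif on either strand was present in 21.8% of all promoter windows, the GC box in 36.8%, the TATA box in 6.71% and the CCAAT box in 23.5%.

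SPARC mRNA was about 3 times as abundant in Helz-null cells as in WT cells. SPARC is a minus-strand gene of chromosome 5 (GRCh37, equal to hg19; chr5:151040657-151066536), with 10 exons in its canonical transcript. Its raw counts were 2686 and 1694 in WT replicates 1 and 2 and 5297 and 9104 in Helz-null replicates 1 and 2. Per kilobase of the deposited gene width, its level was 11.9 and 11.5 FPKM in WT and 35.7 and 36.4 FPKM in Helz-null cells. The group means were 11.7 ± 0.287 and 36.0 ± 0.472 FPKM (SD, n = 2 each). The log2FC was 1.62 (standard error 0.039), a 3.07-fold change. Of the 10978 genes tested, 12 had a higher log2FC. These are the values for which the gene had been chosen, so their spread is no test of the change. GAPDH, the usual reference gene, was itself slightly lower in Helz-null cells (2770 and 2698 CPM against 2393 and 2389 CPM), and relative to GAPDH the log2FC of SPARC was 1.82.

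The part of the SPARC mRNA that the study measured by RT-qPCR lies in the last exon. The primer pair is shown because it defines the stretch of SPARC on which that assay rested, and all of each primer was used for matching.
SPARC_f: ctagaggctcagtggtggga
SPARC_r: tccctagagcccctgagaag
SPARC_f matched the minus strand of GRCh37 at chr5:151042626-151042645 and SPARC_r the plus strand at chr5:151042341-151042360, each at 1 place in the genome. Both sites are in exon 10, in the 3′ UTR, and together they bound an amplicon of 305 bases. The deposited counts are sums over the whole gene, so the RNA-Seq values above are not restricted to this stretch. With this assay the paper reported more sparc mRNA in Helz-null than in WT cells. It also reported that transient expression of GFP-HELZ in Helz-null cells lowered sparc mRNA, in part back toward the WT level. The libraries used here hold no such cells.

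The counts assigned to a long non-coding RNA on the opposite strand of SPARC differed in the same direction. CTB-113P19.1, which carries the names CLMAT3 and SPARC-AS1 in RefSeq, runs along the plus strand at chr5:151056506-151105034 and shares 191 exon bases with SPARC transcripts. Of these, 51 lie in the 3451 bases of the canonical SPARC transcript. Its counts were 88 and 88 in WT and 201 and 403 in Helz-null cells, or 1.40 and 2.15 CPM against 4.86 and 5.78 CPM. The log2FC was 1.65 (standard error 0.17). Its level was 0.711 and 1.09 FPKM in WT against 2.47 and 2.93 FPKM in Helz-null cells. Only in the Helz-null libraries was it above 2 FPKM, the level at which the authors selected genes. It is thus among the tested genes through the group where it was higher, and no p-value is given. Its counts were 3.28% and 5.19% of those of SPARC in WT and 3.79% and 4.43% in Helz-null cells. Whether the counting used the strand is not given in the sources used here. Reads of SPARC and of its antisense RNA in the shared bases therefore cannot be told apart. How much of the antisense count and of its change came from SPARC transcripts was not tested.

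Within 500 kb of the SPARC start, 5 further genes were tested. GM2A, the activator of ganglioside breakdown in lysosomes, had 63.0 and 60.4 CPM in WT against 71.8 and 73.4 CPM in Helz-null cells (log2FC 0.23, FDR 1.23e-05). It was the single called gene among the 5. SLC36A1, an amino acid transporter of lysosomes, had a log2FC of 0.17 (FDR 0.010), CCDC69 one of 0.16 (FDR 0.055), the copper chaperone ATOX1 one of 0.069 (FDR 0.32) and the stress granule protein G3BP1 one of 0.017 (FDR 0.69). Over the 20 tested genes within 2 Mb the median log2FC was 0.016 and the lowest -0.56. Of these, 4 were down-regulated and 2 up-regulated, GM2A and the antisense RNA. The latter is among the tested genes through its level in Helz-null cells. Over the 57 tested genes within 10 Mb the median was 0.0085. Only the antisense RNA, whose counts may include reads of SPARC, was near the log2FC of SPARC in the wider window.

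FSTL1 and SMOC1, the other well expressed members, were higher in Helz-null cells by much less than SPARC. In the deposited comparison 13.9% of all genes tested were up-regulated, and 2 of 2 further members there were. FSTL1 binds BMP ligands and BMP receptors and restrains their signalling. Its gene is on the minus strand at chr3:120111140-120169863. Its level was 36.4 and 37.4 FPKM in WT and 41.4 and 41.8 FPKM in Helz-null cells. The groups did not overlap. The difference of means, from 36.9 ± 0.710 to 41.6 ± 0.260 FPKM (SD, n = 2 each), exceeded the spread between replicates. With 2 libraries per group such a separation is weak on its own, here and for the members below. The share of all tested genes without overlap was not computed. The log2FC was 0.17 (standard error 0.032, FDR 2.77e-05, edgeR), a 1.13-fold change. SMOC1, a BMP antagonist needed for eye and limb development, has its gene on the plus strand at chr14:70320848-70499083. Its level was 12.2 and 12.8 FPKM in WT and 15.3 and 15.8 FPKM in Helz-null cells. Here too both Helz-null libraries were above both WT libraries. The log2FC was 0.32 (standard error 0.046, FDR 4.63e-07, edgeR), a 1.24-fold change. When tested against a change of at least 1.2-fold in place of no change, neither was called (FDR 0.44 for SMOC1 and 1.0 for FSTL1). Among all tested genes 583 had a higher log2FC than SMOC1 and 1641 had a higher one than FSTL1. The median log2FC of the tested genes within 2 Mb was 0.011 around FSTL1 (17 genes) and -0.011 around SMOC1 (16 genes).

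SPOCK1 and SPOCK3 fell in Helz-null cells. Both testicans are secreted proteoglycans of the nervous system that can block the activation of pro-MMP2 by membrane-type matrix metalloproteinases. In the wider fit 11.5% of the genes were down-regulated and 9.83% up-regulated. Among the 5130 genes that only the wider fit held, which are low like these members, the shares were 4.31% down and 3.80% up. Of the 4 low members 2 were down-regulated, none was up-regulated and 2 were not called.

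SPOCK1 spans chr5:136310987-136934068 on the minus strand and has the longest span of the 8 genes. Its raw counts were 146 and 121 in WT and 31 and 29 in Helz-null cells, although Helz-null replicate 2 was the deepest library. Its level was 2.33 and 2.95 CPM in WT against 0.750 and 0.416 CPM in Helz-null cells. The groups did not overlap, and the higher replicate was 1.27 times the lower in WT and 1.80 times in Helz-null cells. The log2FC was -2.24 (standard error 0.27, 95% interval -2.79 to -1.70, FDR 3.14e-08, edgeR), a 4.74-fold lower level. Of the 16087 genes in the wider fit 65 had a lower log2FC. Its neighbourhood did not share the change. The 24 tested genes within 2 Mb had a median log2FC of 0.064, 5 of them up-regulated and 4 down-regulated.

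SPOCK3 spans chr4:167654535-168155947 on the minus strand. Its counts were 176 and 97 in WT and 49 and 74 in Helz-null cells. Scaled to the library, these were 2.80 and 2.37 CPM against 1.19 and 1.06 CPM, with no overlap of the groups and a ratio between replicates of at most 1.18. The log2FC was -1.23 (standard error 0.21, 95% interval -1.67 to -0.79, FDR 2.56e-05, edgeR), a 2.34-fold lower level. Its neighbours were low as well. Within 2 Mb only 4 genes were tested, each with a log2FC below 0 and 3 of them down-regulated. Within 10 Mb, a window chosen after seeing the data, all 26 tested genes were below 0, and 23 were down-regulated. Their log2FC values ranged from -0.90 to -0.093 with a median of -0.54. SPOCK3 was lower than each of them, and its log2FC after subtraction of this median was -0.69. The part that the position on the chromosome has in the change of SPOCK3 was not tested.

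SPOCK2 and SPARCL1 were not called. SPOCK2 is the testican known to relieve the block that the other testicans put on membrane-type metalloproteinases. Its level was 1.45 and 1.63 CPM in WT against 2.27 and 1.89 CPM in Helz-null cells, from 67 to 132 counts per library. The groups did not overlap, but the log2FC of 0.43 had a 95% interval from -0.0095 to 0.86 (FDR 0.13, edgeR). SPARCL1, which bridges neurexins and neuroligins at synapses and is counteracted there by SPARC, had 10 and 8 counts in WT and 4 and 20 in Helz-null cells. Helz-null replicates 1 and 2 lay below and above both WT libraries, at 0.0968 and 0.287 CPM against 0.159 and 0.195 CPM. The log2FC was 0.27 with a 95% interval from -0.95 to 1.49 (FDR 0.77), so that a change in either direction of up to that size could not be detected at this depth. Without Helz-null replicate 2 its value was -0.83. SMOC2, the close relative of SMOC1, had 0 counts in every library. A count of 0 allows up to 3 counts, which is 0.043 to 0.073 CPM depending on the library. This limit would be higher if both mates of a pair were counted.

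**Figure D1:**
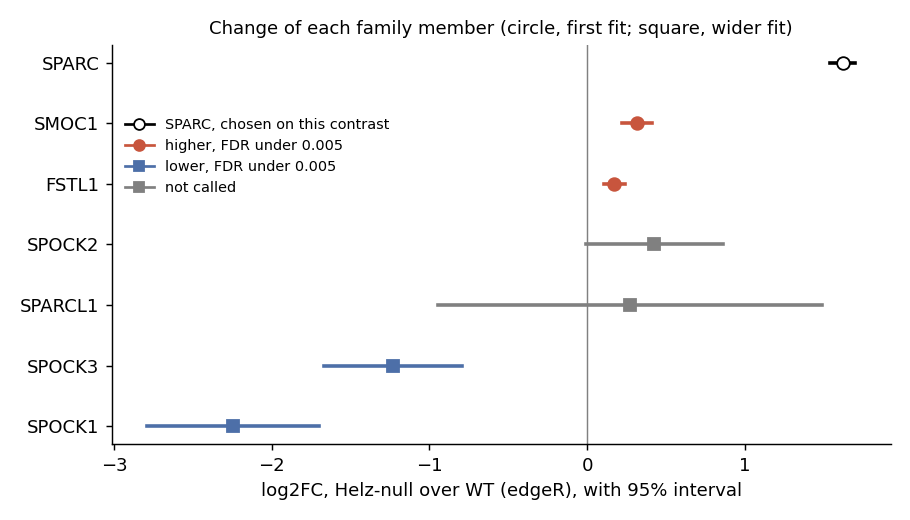
log2FC (Helz-null over WT, x axis) of the 7 members with counts, with 95% intervals. Circles come from the fit over the deposited comparison and squares from the wider fit. SPARC, at 1.62, is drawn open because it was chosen on this contrast, and its interval is no test. SMOC1 and FSTL1 lie just above 0 with narrow intervals, the intervals of SPOCK2 and SPARCL1 include 0, and SPOCK3 and SPOCK1 lie at -1.23 and -2.24.

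The 3 testicans thus had different values in the same cells. The FPKM ratio of SPOCK2 to SPOCK1 was 0.481 and 0.427 in WT and 2.34 and 3.51 in Helz-null cells, so that SPOCK2 was the lower of the pair in WT and the higher in both Helz-null libraries. The ratio of SPOCK1 to SPOCK3 was 0.612 and 0.921 in WT and 0.467 and 0.289 in Helz-null cells.

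Per length, the members fell into an abundant and a sparse group in both cell types. In WT cells FSTL1 was highest at 36.9 FPKM, followed by SMOC1 at 12.5 ± 0.432 and SPARC at 11.7 ± 0.287 FPKM. The FPKM ratio of SPARC to SMOC1 was 0.974 and 0.896 there, so these neighbours in the order were close to each other. The low members followed with SPOCK3 at 0.725 ± 0.0867, SPOCK1 at 0.547 ± 0.0917, SPOCK2 at 0.246 ± 0.0209 and SPARCL1 at 0.0567 ± 0.00811 FPKM (SD, n = 2 each). In Helz-null cells SPARC moved above SMOC1, to 36.0 FPKM against 15.6 ± 0.353 FPKM, and the order among the low members also changed. SPOCK2 at 0.333 ± 0.0431 and SPOCK3 at 0.315 ± 0.0247 FPKM overlapped between libraries, as did SPOCK1 at 0.121 ± 0.0490 and SPARCL1 at 0.0614 ± 0.0430 FPKM. These 4 members were under 1 FPKM in every library, below the level of 2 FPKM at which the authors selected genes.

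**Figure D2:**
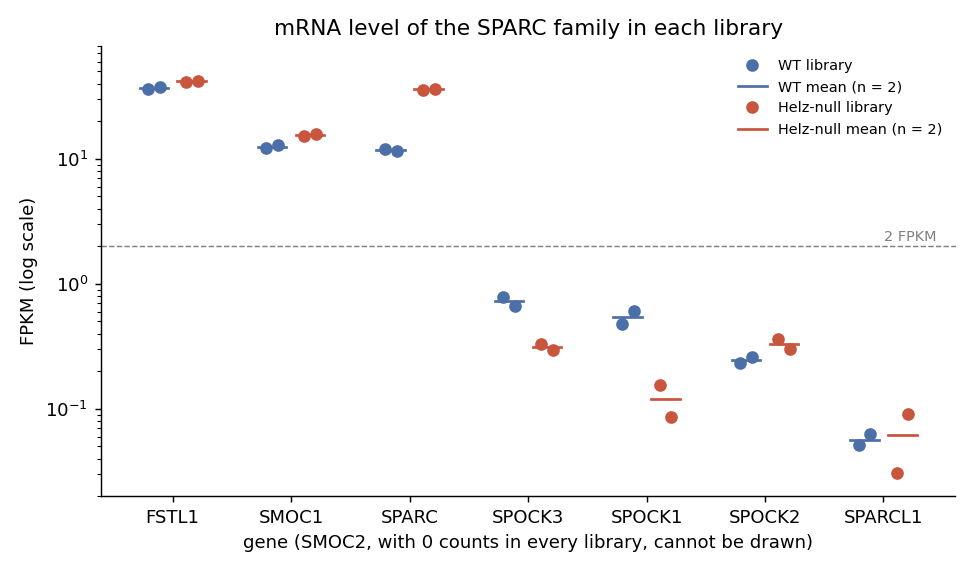
mRNA level in FPKM (log scale, y axis) of the 7 members with counts (x axis), for each WT library (blue points) and each Helz-null library (red points), with the mean of each group as a bar. FSTL1, SMOC1 and SPARC lie above 11 FPKM in every library and the other 4 under the dashed line at 2 FPKM. SPARC has the largest distance between the groups among the upper 3, and SPOCK3 and SPOCK1 are the 2 genes with lower levels in Helz-null cells beyond the distance between replicates.

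SPARC made up a larger part of the family mRNA in Helz-null cells. This larger share comes with the rise for which SPARC had been chosen and is no separate result. The FPKM of the 8 members summed to 62.1 and 63.4 in WT and to 93.3 and 94.7 in Helz-null cells. The share of SPARC in this sum was 19.2% and 18.2% in WT and 38.3% and 38.4% in Helz-null cells. The share of FSTL1 was 58.6% and 59.0% against 44.4% and 44.1%, and that of SMOC1 was 19.7% and 20.3% against 16.4% and 16.7%, although the level of both genes was higher in Helz-null cells. The FPKM ratio of SPARC to FSTL1 was 0.327 and 0.308 in WT and 0.863 and 0.871 in Helz-null cells. The ratio of SMOC1 to FSTL1 moved less, from 0.336 and 0.343 to 0.370 and 0.379. These shares and the order of SPARC and FSTL1 rest on the deposited gene widths. With the exon lengths of GENCODE, which are 9409 bases for FSTL1 in place of 3840, SPARC was at 27.9 FPKM and FSTL1 at 17.0 FPKM in Helz-null cells, and at 9.07 and 15.1 FPKM in WT cells.

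**Figure D3:**
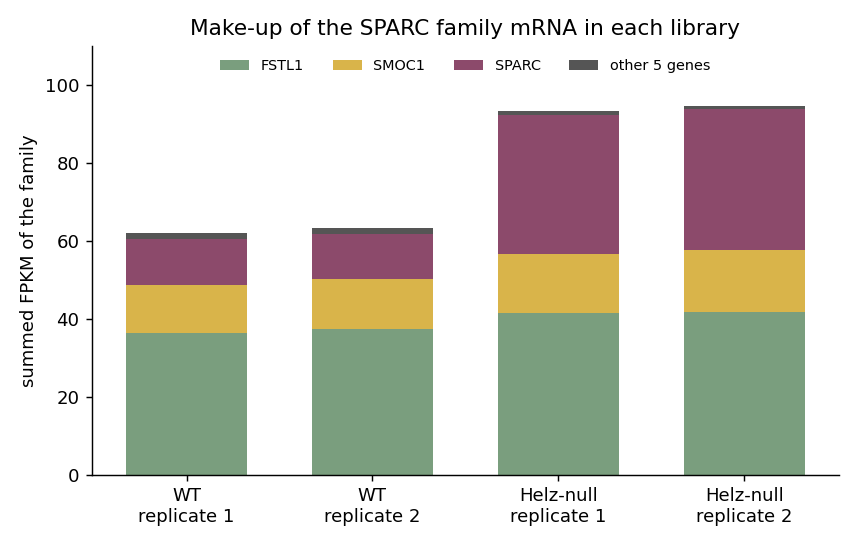
Summed FPKM of the 8 family members (y axis) in each of the 4 libraries (x axis), divided into FSTL1, SMOC1, SPARC and the other 5 genes. The 2 WT bars reach 62.1 and 63.4 and the 2 Helz-null bars 93.3 and 94.7, and the SPARC part grows from 19.2% and 18.2% to 38.3% and 38.4%.

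The tested genes whose pattern over the 4 libraries was most like that of SPARC were HLA-DMA, BASP1, CXCL12, PLEKHA4 and TMEM35. Likeness was measured as the root mean square difference of log2 CPM values centred on the mean of each gene, with SPARC left out, and was 0.071 for HLA-DMA, 0.075 for BASP1, 0.089 for CXCL12, 0.095 for PLEKHA4 and 0.13 for TMEM35. With 2 groups of 2 libraries this measure mostly ranks genes by a similar difference between the groups. The genes were picked by their match to SPARC, so their values are a description. Apart from BASP1, they were above 2 FPKM only in the Helz-null libraries. Means in WT and Helz-null cells were 1.40 and 4.52 FPKM for HLA-DMA, 0.847 and 2.39 for CXCL12, 1.71 and 4.89 for PLEKHA4 and 0.993 and 3.70 for TMEM35. They are thus among the tested genes through the group where they were higher. HLA-DMA, which helps to load peptides on MHC class II, had 1.70 and 1.44 CPM in WT against 5.11 and 5.03 CPM in Helz-null cells. BASP1, a membrane-bound protein of growing axons and itself another RT-qPCR target of the study, had 9.49 and 9.27 against 27.6 and 25.7 CPM. The chemokine CXCL12 had 4.35 and 4.61 against 13.0 and 12.3 CPM.

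Genes that act together with the family were described from lists of symbols, with counts in the fit over the deposited comparison unless the wider fit is named. In that fit 13.9% of all genes rose and 15.5% fell, and the median log2FC was -0.00091. Among the 8 collagen genes whose proteins SPARC binds, 6 were tested. Of these 4 were up-regulated and 1 was down-regulated, with a median log2FC of 0.27. Those that rose encode chains of collagens IV and V, a network-forming collagen of basement membranes and a minor fibrillar collagen. COL5A1 had 19.7 and 22.8 CPM in WT against 30.6 and 28.4 CPM in Helz-null cells (log2FC 0.48, FDR 2.21e-07). COL4A2 had 98.4 and 106.3 CPM against 130.7 and 134.7 CPM (log2FC 0.38, FDR 2.47e-11). COL5A2 (log2FC 0.34) and COL4A1 (log2FC 0.21) rose as well, whereas COL2A1 fell by 0.34 on the log2 scale, from 38.9 and 39.5 to 30.7 and 31.1 CPM. COL1A1, of the main fibrillar collagen of bone and skin, had a log2FC of 0.054 and was not called. Without WT replicate 1, 2 collagen genes were up-regulated.

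Of the 13 tested genes that fold, process and crosslink collagen 3 were up-regulated and 1 was down-regulated, with a median log2FC of 0.014. The procollagen C-proteinase BMP1 (log2FC 0.41, FDR 1.13e-04), the lysyl oxidase LOXL2 (0.40, FDR 7.06e-04) and the lysyl hydroxylase PLOD3 (0.18, FDR 1.38e-03) rose and PLOD1 fell by 0.17 (FDR 1.22e-04). The procollagen N-proteinase ADAMTS2 rose in the wider fit (log2FC 0.51, FDR 4.66e-05). Only 1 gene of the list was up-regulated with DESeq2 or without WT replicate 1, and none was called in either direction without Helz-null replicate 2.

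Among 7 tested proteases and inhibitors that cleave members of the family or are controlled by them, 3 were up-regulated and 1 was down-regulated, with a median log2FC of 0.16. MMP2, the gelatinase whose activation the testicans SPOCK1 and SPOCK3 can block, had 10.5 and 9.90 CPM in WT against 20.5 and 19.7 CPM in Helz-null cells. Its log2FC was 0.96 (standard error 0.080, FDR 5.05e-13), the largest in this list. TIMP2, an inhibitor that also takes part in the activation of MMP2, had 51.8 and 57.9 CPM against 80.7 and 81.5 CPM (log2FC 0.57, FDR 7.62e-14). The cathepsin genes CTSB (log2FC 0.16, FDR 5.06e-04) and CTSL (log2FC -0.15, FDR 1.37e-03) had opposite signs. CTSL was not called without WT replicate 2, without Helz-null replicate 1, with DESeq2 or with scaling by library size only. MMP14, the membrane-type metalloproteinase that activates MMP2, was low at 0.760 CPM in WT and 0.606 in Helz-null cells and was not called in the wider fit (log2FC -0.29, FDR 0.54).

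Of 6 tested receptors and growth factors of SPARC, the integrin subunit gene ITGB1 was up-regulated (log2FC 0.12, FDR 8.55e-04), and FGF2 (-0.40, FDR 5.63e-07) and VEGFA (-0.27, FDR 1.03e-04) were down-regulated, with a list median of 0.016. FGF2 and VEGFA encode growth factors for fibroblasts and endothelial cells, and SPARC can bind VEGFA. ITGB1 lost its call without WT replicate 1 and without either Helz-null library, and without Helz-null replicate 1 only 1 gene of the list was down-regulated.

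Of the 9 tested BMP ligands, receptors and targets and other partners of FSTL1, none was up-regulated and 3 were down-regulated, with a median log2FC of 0.050. These were the receptor genes BMPR1A (-0.19, FDR 1.43e-03) and BMPR2 (-0.16, FDR 2.36e-03) and the target gene ID3 (-0.18, FDR 2.59e-04). The other targets ID1 and ID2 had log2FC values of 0.12 and 0.073 and were not called. The ligand gene BMP2 fell in the wider fit, from 3.39 and 4.61 CPM to 2.01 and 1.86 CPM (log2FC -1.04, FDR 2.24e-05). Without WT replicate 2 or without Helz-null replicate 2, 1 gene of the list was down-regulated in the fit over the deposited comparison. DESeq2 called 0 up and 1 down, and scaling by library size only gave 1 up and 1 down.

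Other matricellular genes were mostly low. CYR61, a CCN family gene, was the only one of 17 in the deposited comparison, and it was not called (log2FC 0.23, FDR 0.020). In the wider fit 10 were tested, none was up-regulated and THBS1, which encodes thrombospondin-1, was down-regulated. Its level was 1.24 and 1.02 CPM in WT against 0.339 and 0.502 CPM in Helz-null cells (log2FC -1.39, FDR 1.11e-03). Of the other genes with follistatin domains, 3 of 7 were tested and AGRN, the heparan sulfate proteoglycan agrin of the neuromuscular junction, rose. It had 60.0 and 65.1 CPM in WT against 98.1 and 95.3 CPM in Helz-null cells (log2FC 0.63, FDR 3.41e-16). The median of this list was 0.16. Of the neurexins and neuroligins, the synaptic partners of SPARCL1, 2 of 7 were tested, NLGN2 rose (log2FC 0.26, FDR 8.19e-06), NLGN1 was not called (-0.058, FDR 0.64) and the median was 0.098.

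**Figure D4:**
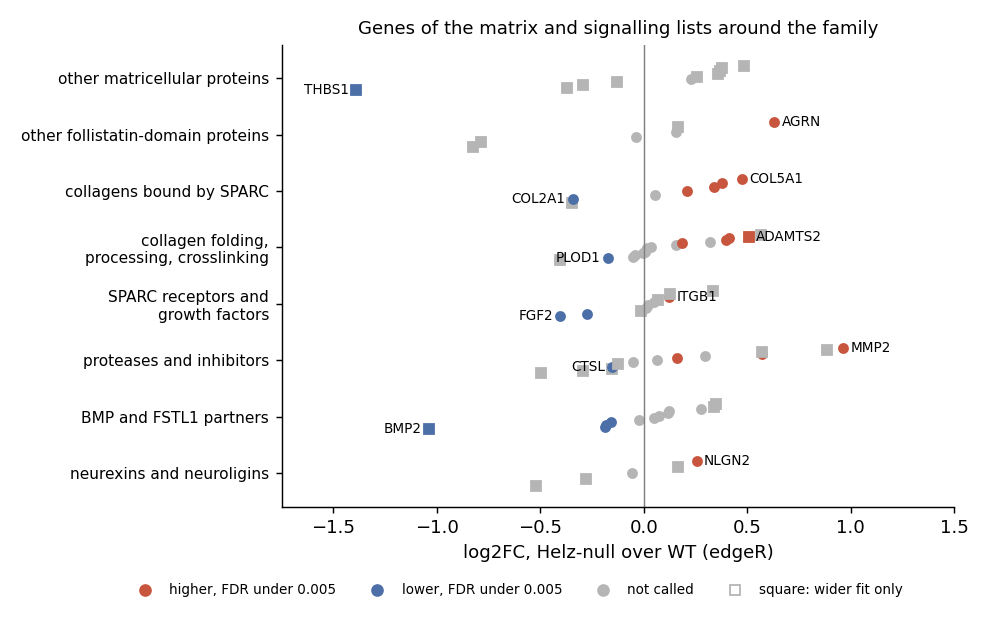
log2FC (Helz-null over WT, x axis) of the genes in 8 lists of matrix and signalling genes (y axis), 1 point per tested gene. Red points were higher and blue points lower at an FDR under 0.005, grey points were not called, and squares come from the wider fit. The gene with the largest called change in each direction is named, with MMP2 at 0.96 and THBS1 at -1.39 as the outermost called genes.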

How the data were processed

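RNA-Seq of WT and Helz-null HEK293T cells gave 2 libraries per group. The authors removed ribosomal RNA with Bowtie2, mapped the paired-end reads on hg19 by TopHat2 and obtained counts per gene with QuasR. These counts were deposited without normalization, beside a gene width in bases, for 27011 genes. Tool versions, annotation, strand and the treatment of mates are not given in the sources used here. The deposited totals are about double the mapped reads that the methods state, so both mates of a pair may have been counted, and counts divided by 2 were an alternative. A deposited comparison by edgeR holds fold changes and p-values of the authors, of which only the list of 10978 genes was used.

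Counts were tested in R 4.3.3 with edgeR 4.0.16 (TMM, estimateDisp, glmQLFit, glmQLFTest, genotype only, Benjamini-Hochberg over all genes of a fit). The filterByExpr fit held 16087 genes. CPM and FPKM used effective library sizes, and FPKM the deposited width. DESeq2 1.42.0, other scalings, filters, thresholds, a replicate block and single libraries left out were alternatives. The fits were tested on simulated data. TMM factors were 0.987 to 1.01 and the biological coefficient of variation was 2.6%. The chi-square per degree of freedom was 4.16 between the WT and 3.01 between the Helz-null libraries. Counting both mates raises these values as well, and they do not show biological independence. Each library was kept as a replicate because the labels name it as one. Floors of 3 counts cover counting error only and take each count as a separate fragment.

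Positions came from GENCODE on GRCh37, where 10379 tested genes were found under their symbol and 522 under an older one, leaving 77 without a position. Promoter windows came from RefSeq on GRCh38.p14, and no coordinate was converted. Named genes were the members, HELZ, GAPDH, tested genes within 500 kb of SPARC, the 5 genes most like SPARC (log2 of CPM plus 0.05) and, of each list, up to 4 called genes with the largest change and any gene of a count of 5 or fewer. COL1A1, MMP14, ID1, ID2 and NLGN1 were added after their values were seen. The members and lists were chosen with earlier results of these data known.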

Additional observations from a re-analysis of the deposited data

How the results depend on the processing

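SPARC, SPOCK1, SPOCK2, SPOCK3, SMOC1 and FSTL1 kept their direction under every alternative that gave a value. The calls of all but SPARC, for which none was made, held under every alternative with a test, except as follows. Values relative to GAPDH or to neighbouring genes have no test. A test against a fold change of 1.2 left 217 genes up-regulated and 318 down-regulated over all tested genes, 3 up and 0 down over all lists (13 and 8 as reported), and called neither SMOC1 (0.32) nor FSTL1 (0.17). At an FDR under 0.05, 2371 genes were up-regulated. DESeq2 and scaling by library size only each left 5 list genes down-regulated. That scaling gave 2109 upward and 1318 downward calls, so that 61.5% of the calls were upward in place of 47.3% (1524 and 1701 genes). Relative to GAPDH, the log2FC was 1.82 for SPARC, -1.01 for SPOCK3, 0.50 for SMOC1 and 0.36 for FSTL1. Minus the median of the genes within 10 Mb, added after seeing the data, SPOCK3 was at -0.69. With GENCODE exon lengths, WT and Helz-null FPKM were 9.07 and 27.9 for SPARC, 10.6 and 13.2 for SMOC1, 15.1 and 17.0 for FSTL1 and 0.577 and 0.251 for SPOCK3, and SPOCK1 in WT was at 0.426. A filter of FPKM above 2 gave no value for the 4 low members, and SPOCK3 had too few tested genes within 2 Mb for a subtracted median.

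With single libraries left out, upward calls numbered 1027 to 1544 and downward calls 1180 to 1659, and in the lists 8 (without WT replicate 1) to 13 up and 5 (without WT replicate 2 or either Helz-null replicate) to 8 down. The log2FC ranged from 1.60 to 1.65 for SPARC, 0.28 to 0.35 for SMOC1, 0.15 to 0.19 for FSTL1, -2.65 to -1.80 for SPOCK1, 0.30 to 0.57 for SPOCK2, -1.33 to -1.09 for SPOCK3 and -0.83 (without Helz-null replicate 2) to 0.71 for SPARCL1. The cause of these shifts was not tested.

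Replicates shared a number only. The differences of replicate 1 from replicate 2 correlated at 0.034 between the groups over 10978 genes, and groups of 2 give no further check. With the replicate block there were 1677 upward and 1841 downward calls, and 14 and 8 in the lists. The log2FC was 1.62 for SPARC, 0.31 for SMOC1, 0.17 for FSTL1, -2.25 for SPOCK1, 0.43 for SPOCK2, -1.20 for SPOCK3 and 0.080 for SPARCL1, and no call of a member changed.

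Depth limits the low members most. SPARCL1 had at most 20 counts in a library, SPOCK1 at most 31 in Helz-null cells, and SMOC2 had none.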
